A study of Capra hircus with 12 samples.

Results

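HSPH1, DNAJB1, HSPA8, HSP90AA1 and HSPD1 are heat shock genes that were followed here through the lactating goat mammary gland after glucose infusion. They were chosen by name: a rule listed 6 heat shock genes, of which 5 were found among the 15810 genes listed for every library, and HSPB1, a small heat shock protein, was not analysed here. The samples were biopsies of mammary gland from female dairy goats (Capra hircus) in lactation, frozen in liquid nitrogen, whose glands had received 1 of 3 doses of glucose (low, middle or high). The 12 RNA-seq libraries were 4 for each dose. Every group was infused and no uninfused gland was analysed here. The sources used here do not give the amounts of glucose, the breed, the ages or the goat behind each library. The p-values therefore measure the spread between these libraries, which may or may not be separate goats.

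Heat shock proteins are chaperones, which bind proteins that are unfolded or newly made and help them to fold or pass them on for breakdown. HSPA8 is the constitutive HSP70 of the cytosol, DNAJB1 is a J-domain partner that delivers clients to HSP70 and stimulates its ATPase, and HSPH1 is an HSP110 that exchanges the nucleotide on HSP70. HSP90AA1 is the stress-responsive HSP90 of the cytosol, which takes partly folded clients such as kinases and steroid receptors from HSP70. HSPD1 is HSP60, the barrel-shaped chaperonin of the mitochondrial matrix. The transcription factor HSF1 drives genes of this kind when misfolded protein accumulates, and a lactating gland, which makes secreted protein in bulk, needs chaperones also without heat. The name "cytosolic heat shock genes" thus holds for the first 4 genes only. The gene ontology terms deposited with the tables give HSPD1 the cytosol and 1 mitochondrial term.

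The tables place HSPH1 (gene ID 102187688) on chromosome 12 at 27557717 to 27581404, DNAJB1 (102172345) on chromosome 7 at 8345452 to 8349205, and HSPA8 (102182240) on chromosome 15 at 31969619 to 31974040. HSP90AA1 (100860851) lies on chromosome 21 at 63865286 to 63870038 and HSPD1 (100861238) on chromosome 2 at 85327793 to 85336964. The goat build of these coordinates is not given in the sources used here. HSPE1, which encodes the lid of the HSPD1 barrel, lies 490 bases from HSPD1 in the same coordinates. No listed gene overlapped any of the 5. HSPA8 and HSP90AA1 have close relatives in the genome, and how reads shared with these were counted is not given, so their levels carry that uncertainty.

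Libraries held 9555072 to 12716883 counted reads, and 7 milk protein genes took 2.16 to 58.9% of them. Epithelial markers were present in every library. The summed levels of 9 of them, such as EPCAM, KRT18 and ELF5, lay between 2166 and 4745 CPM (read counts relative to library size, after TMM scaling for composition). ELF5 alone gave 3348 of the 4745 CPM, in middle-dose replicate 4. In edgeR, 7 of the 9 had lower estimates at the middle than at the low dose (median log2 -0.39), so the sum does not speak for each marker. Other cells were present too: 10 myoepithelial and smooth muscle markers summed to 1915 to 3288 CPM, and 8 fibroblast and matrix markers to 1889 to 19809 CPM. Middle-dose replicate 3 stood apart from its group in milk protein reads (3.41%, against 52.0 to 58.9% in the other 3). High-dose replicate 3 stood apart in the heat shock genes, which took 0.614% of its reads, against 0.0739 to 0.288% in the other 11 libraries. The main results below are given with and without these libraries. The deposited tables came in 2 layouts, one with 16030 genes (replicates 1 and 4 of the high dose, 3 of the low dose and 1 of the middle dose) and one with 15991 genes (the other 8 libraries), and the layout, which no label explains, was taken as a batch that may reflect processing. The 5 genes had 194 to 34774 reads per library, so that the counting error of a single value was 0.536 to 7.18%, far below the spread between libraries of a dose. In a bulk biopsy, fewer cells of a type and less RNA per cell cannot be told apart.

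HSPH1, the nucleotide exchange factor of HSP70, had the highest ratio of top to bottom level among the 5, with levels from 33.9 to 347 CPM. In replicates 1 to 4 of the low dose it stood at 58.5, 94.1, 63.2 and 33.9 CPM. The middle-dose libraries held 52.2, 85.3, 98.1 and 72.3 CPM. Those of the high dose held 77.0, 231, 347 and 109 CPM. High-dose replicates 2, 3 and 4 lay above all 8 libraries of the lower doses, whereas high-dose replicate 1 lay within their range. Mean levels for the low, middle and high doses were 62.4 ± 24.7, 77.0 ± 19.6 and 191 ± 123 CPM (SD, n = 4 each). The low and middle doses differed by less than their spread.

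HSPA8, the HSP70 that HSPH1 serves, kept to a narrow band outside the high dose. Its low-dose libraries held 559.5, 758, 887 and 559.6 CPM, and its middle-dose libraries 546, 827, 766 and 565 CPM. High-dose libraries held 750, 1155, 2614 and 921 CPM. Replicate 3 of that dose was more than 2 times the next library, replicates 2 and 4 lay above all lower-dose libraries, and replicate 1 lay among them. The dose means were 691 ± 161, 676 ± 141 and 1359.9 ± 852 CPM (SD, n = 4 each), and the high-dose SD was larger than the gap between the doses.

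DNAJB1, the J-domain partner, was lowest at the middle dose. Its low-dose values were 50.7, 74.7, 63.1 and 48.7 CPM. Middle-dose libraries held 42.5, 37.6, 58.3 and 39.5 CPM, so that replicates 1, 2 and 4 lay below all other libraries and replicate 3 lay among the low-dose ones. High-dose libraries held 51.9, 78.3, 96.2 and 86.3 CPM. Replicates 2, 3 and 4 of the high dose lay above every other library, and replicate 1 lay within the low-dose range. Means were 59.3 ± 12.1, 44.5 ± 9.41 and 78.2 ± 19.0 CPM (SD, n = 4 each) for low, middle and high.

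HSP90AA1 stayed between 559.7 and 944 CPM in all libraries but 1. Low-dose libraries held 738, 863, 883 and 728 CPM of it. Middle-dose libraries held 563, 782, 906 and 559.7 CPM, and high-dose libraries 944, 905, 1637 and 887 CPM. All 4 high-dose libraries lay above all 4 low-dose libraries, though by a small margin (887 against 883 CPM at the nearest). Middle-dose replicate 3 (906 CPM) overlapped the high dose. The means were 803 ± 81.2, 703 ± 171 and 1093 ± 363 CPM (SD, n = 4 each). High-dose replicates 1, 2 and 4 held 887 to 944 CPM, and replicate 3 alone carried the wide spread of that dose.

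HSPD1, the mitochondrial chaperonin, had a different order of libraries. Low-dose values were 174, 242, 160 and 158 CPM, and middle-dose values were 196, 274, 249 and 203 CPM. High-dose libraries held 204, 301, 673 and 166 CPM of HSPD1. Replicate 4 of the high dose lay within the low-dose range, below all of the middle dose, and replicate 3 was more than 2 times any other library. Means were 183 ± 39.8, 230.4 ± 37.3 and 336 ± 232 CPM (SD, n = 4 each).

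**Figure D1:**
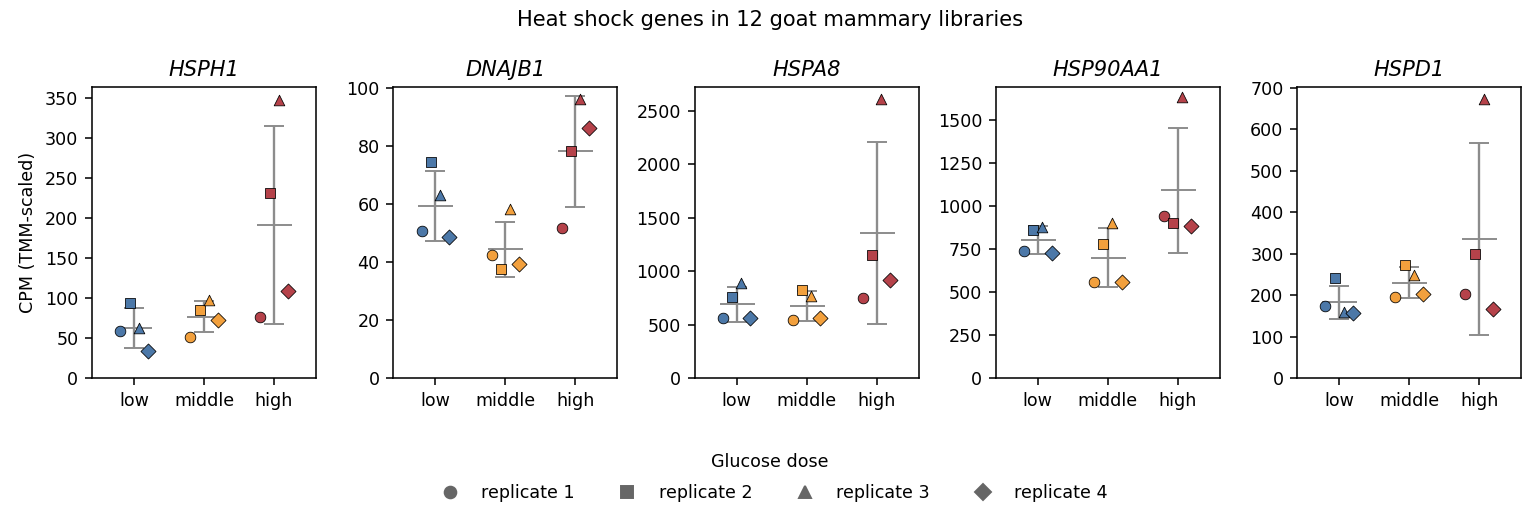
Level of each heat shock gene in the 12 libraries, in CPM on a linear axis from 0, by glucose dose; each point is a library, its shape gives the replicate number, and grey bars are the mean ± SD of 4 libraries. High-dose replicate 3 (triangle) is the highest library for all 5 genes, from 96.2 CPM for DNAJB1 to 2614 CPM for HSPA8.

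The first comparison set the high against the low dose, the ends of the range of glucose supply. The estimates of all 5 genes were higher at the high dose, by 3.06-fold for HSPH1 (log2 1.61 ± 0.44 SE), 1.97-fold for HSPA8 (0.98 ± 0.36), 1.83-fold for HSPD1 (0.87 ± 0.37), 1.36-fold for HSP90AA1 (0.45 ± 0.25) and 1.32-fold for DNAJB1 (0.40 ± 0.22). Of all 13624 genes tested, 47% had a higher estimate. That share was 18.4% when libraries were scaled by size alone, which put the median of all genes at -0.32, and relative to that median the 5 genes stood at 0.39 (DNAJB1) to 1.54 (HSPH1). None of the 5 passed an adjusted p of 0.05 in the quasi-likelihood test of edgeR, and neither did any other gene (0% of all genes). Adjusted p was 0.386 for HSPH1, 0.388 for HSPA8, 0.408 for HSPD1, 0.479 for DNAJB1 and 0.483 for HSP90AA1 by that test. DESeq2 and limma voom called 0 of the 5 as well, against 0.49% and 0% of all genes, and the closest was HSPH1 with an adjusted p of 0.0505 by DESeq2. Unadjusted p was under 0.05 in edgeR with a higher level at the high dose for 3 of the 5 (HSPH1 0.00342, HSPA8 0.0192, HSPD1 0.0362), against 7.27% of all genes. HSP90AA1 was the 1 gene of the 5 whose libraries did not overlap between the doses, which held for 4.73% of all genes. The median log2 difference was 0.87 over the 5 genes and -0.03 over all genes.

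High-dose replicate 3 carried much of these differences. It was the highest library for all 5 genes, so leaving it out was bound to lower their high-dose estimates, and only the size of the drop is informative. Without it all 5 estimates stayed higher at the high dose, but their median was 0.29 and 1 of the 5, HSPH1, kept an unadjusted p under 0.05 in edgeR, against 3.66% of all genes. HSPH1 was then 2.22-fold higher (log2 1.15 ± 0.40 SE, edgeR adjusted p = 0.793). HSPA8 stood at 0.45 ± 0.25, HSPD1 at 0.29 ± 0.23, DNAJB1 at 0.28 ± 0.22 and HSP90AA1 at 0.18 ± 0.20. Within the 8 libraries of the more frequent table layout, which keep replicates 2 and 3 of the high dose, the log2 differences were larger: 2.24 for HSPH1, 1.62 for HSPA8, 1.38 for HSPD1, 0.74 for HSP90AA1 and 0.62 for DNAJB1. None of these passed either, the smallest edgeR adjusted p being 0.0744 for HSPH1. In the other layout, high-dose replicates 1 and 4 held 77.0 and 109 CPM of HSPH1, against 63.2 CPM in its 1 low-dose library, and 750 and 921 CPM of HSPA8, against 887 CPM. The layout of 4 libraries has 1 library each at the low and middle doses and was not tested on its own. Markers of T and NK cells differed in the other direction between these doses: all 14 had lower estimates at the high dose, with summed levels of 110.4 to 206 CPM there and 256 to 385 CPM at the low dose. Their part in the heat shock results was not tested.

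**Figure D2:**
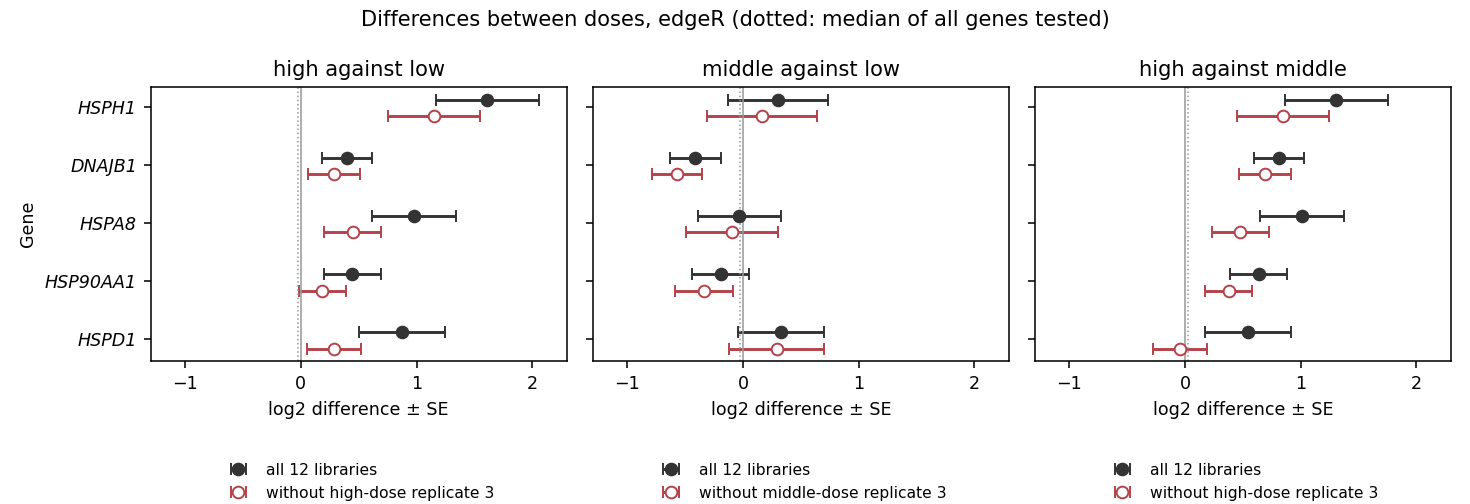
Log2 difference ± SE of each heat shock gene for the 3 comparisons of doses, from edgeR; filled points use all 12 libraries and open points leave out high-dose replicate 3 (left and right) or middle-dose replicate 3 (centre), and the dotted line is the median of all genes tested. HSPD1 at the high against the middle dose goes from 0.55 to -0.04 without high-dose replicate 3, while HSPH1 at the high against the low dose goes from 1.61 to 1.15.

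Between the middle and low doses the 5 genes split. HSPH1 and HSPD1 had higher estimates at the middle dose (log2 0.30 ± 0.44 SE and 0.33 ± 0.37), HSPA8 was level (-0.03 ± 0.36), and HSP90AA1 (-0.19 ± 0.25) and DNAJB1 (-0.41 ± 0.22) had lower ones. The 2 higher of 5 compare with 47.4% of all genes (4.98% by library size alone). In edgeR 0 of the 5 passed, as did 0% of all genes, with adjusted p from 0.267 (DNAJB1) to 0.964 (HSPA8), and DESeq2 and limma voom called 0 of the 5 too, although they called 11.1% and 33.4% of all genes. At an unadjusted p under 0.05 there were 0 of the 5, against 23.7% of all genes. Groups were apart for 0 of the 5 and for 11.8% of all genes. The median of the 5 (-0.03) equalled that of all genes. When middle-dose replicate 3 was left out, edgeR called 2390 genes (17.3% of all) in this comparison but again none of the 5, and DNAJB1 came nearest (log2 -0.57 ± 0.22 SE, edgeR adjusted p = 0.0893). Without scaling for composition the median of all genes lay at -0.86 in this comparison, which turned the estimates of HSPH1 (-0.46) and HSPD1 (-0.50) negative. Relative to that median HSPH1 stood at 0.39, HSPD1 at 0.36, HSPA8 at 0.04, HSP90AA1 at -0.07 and DNAJB1 at -0.28.

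The high and middle doses share the high-dose libraries with the first comparison and the middle-dose libraries with the second, so the 3 comparisons are not independent. All 5 estimates were higher at the high dose, as were 52.8% of those of all genes (91.4% by library size alone). DNAJB1 had the smallest p of the 5 here, with a 1.75-fold difference (log2 0.81 ± 0.22 SE, edgeR adjusted p = 0.209). HSPH1 stood at 1.31 ± 0.44, HSPA8 at 1.01 ± 0.36, HSP90AA1 at 0.64 ± 0.25 and HSPD1 at 0.55 ± 0.37. In edgeR 0 of the 5 and 0% of all genes passed the adjusted threshold, whereas 4 of the 5 (all but HSPD1) had an unadjusted p under 0.05 and a higher level at the high dose, against 7.49% of all genes. Without high-dose replicate 3 this held for 1 of the 5, DNAJB1, against 5.58% of all genes. No gene of the 5 had libraries that were fully apart, against 5.94% of all genes. Library size alone put the median of all genes at 0.56 in this comparison, and relative to it DNAJB1 stood at 0.64 and HSPH1 at 1.12.

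DNAJB1 alone was called for high against middle in other fits. It had an adjusted p of 0.047 by DESeq2, where 2.04% of all genes were called, and 0.0284 by limma voom with quality weights, where 3.55% were. Left without middle-dose replicate 3, edgeR gave DNAJB1 a log2 difference of 0.97 ± 0.22 SE with an adjusted p of 0.0407, and 3.66% of all genes passed. Over the 22 alternatives that were run its edgeR, DESeq2 or limma adjusted p ranged from 0.0284 to 0.574, and its log2 difference from 0.69 to 1.21. Without high-dose replicate 3 it was 0.69 ± 0.23, with an edgeR adjusted p of 0.38. DNAJB1 thus moved least without that library, while HSPD1 turned to -0.04 ± 0.23 without it, and HSPA8 went to 0.48 ± 0.25, HSPH1 to 0.85 ± 0.40 and HSP90AA1 to 0.38 ± 0.20. Markers of other cells differed between these doses too. All 8 endothelial markers had lower estimates at the high dose (summed 672 to 876 CPM, against 665 to 1372 CPM at the middle dose). All 7 neutrophil markers had higher ones (25.6 to 107 against 13.9 to 42.0 CPM), as had 8 of 9 macrophage markers (397 to 613 against 318 to 424 CPM). Estimates were also higher for all 8 fibroblast and matrix markers, 7 of 9 epithelial markers and 6 of 10 myoepithelial and smooth muscle markers. All 7 milk protein genes were lower in estimate, at 7.04 to 42.0% of reads against 3.41 to 58.9%. Their part in the DNAJB1 result was not tested.

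A test of any difference between the 3 doses gave 3 of the 5 an unadjusted p under 0.05 in edgeR (HSPH1 0.00544, DNAJB1 0.00987, HSPA8 0.0208), against 21.4% of all genes, and 0 of the 5 and 0% of all genes passed after adjustment. The edgeR adjusted p was 0.148 for HSPH1, 0.158 for DNAJB1, 0.184 for HSPA8, 0.245 for HSP90AA1 and 0.296 for HSPD1. DESeq2 called HSPH1 alone (adjusted p = 0.0123) among 8.26% of all genes. Limma voom with quality weights called 27.6% of all genes, and with them 4 of the 5: DNAJB1 (adjusted p = 0.0104), HSPH1 (0.0298), HSP90AA1 (0.0311) and HSPA8 (0.0435). Omitting middle-dose replicate 3, edgeR called DNAJB1 (adjusted p = 0.0443) among 9.34% of all genes. HSPD1 was called in none of these fits.

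High-dose replicate 3 held the highest level of all 5 genes among the 12 libraries, whereas 17% of all genes were highest there. The library was singled out by the reads of these same 5 genes. Their high levels in this library follow in part from that choice and are given as a description. Against the median of the other 11 libraries, HSPH1 was 4.51-fold, HSPA8 3.45-fold, HSPD1 3.32-fold, HSP90AA1 1.90-fold and DNAJB1 1.85-fold higher in it. The median ratio over all genes was 0.98. Several chaperones were high in it too. HSPE1, the partner of HSPD1, reached 222 CPM, against 61.6 to 124 CPM elsewhere. HSP90AB1, the constitutive HSP90, reached 1751 CPM, against 627 to 1076 CPM. HSPA4, an HSP110 like HSPH1, reached 353 CPM, against 94.7 to 223 CPM, and HSPA5, the HSP70 of the endoplasmic reticulum, reached 1467 CPM, against 299.8 to 802 CPM.

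The library was not high for every class of chaperone. Of the TRiC chaperonin and prefoldin genes, which fold actin and tubulin in the cytosol, 11 of 14 were highest in it, as were 13 of 18 endoplasmic reticulum chaperones, 10 of 14 genes of HSP90 and its co-chaperones, 8 of 14 mitochondrial chaperones and proteases, and 9 of 21 partners of HSP70. The 5 small heat shock proteins were not among its peaks (0 of 5, with a median ratio of 0.66). With 17% of all genes highest in this library, a count of 0 among so few genes says little. The stress-inducible HSP70 genes, which were picked after their values had been seen, were not among its peaks either. HSP70.1 stood at 49.0 CPM there, against 26.2 to 83.3 CPM in the other libraries, and LOC102178315, described in the tables as a relative of HSPA1B, stood at 48.3 CPM, against 23.6 to 82.6 CPM. Both were highest in high-dose replicate 4. HSPA6, a further inducible HSP70, was highest in middle-dose replicate 3, at 13.8 CPM, and stood at 10.1 CPM here. For high against low all of these inducible genes had higher estimates. HSP70.1 stood at log2 0.63 ± 0.25 SE, LOC102178315 at 0.50 ± 0.29 and HSPA6 at 0.76 ± 0.61. None passed (edgeR adjusted p 0.396, 0.503 and 0.62). HSF1, the driver of the heat shock response, was slightly above its other levels at 20.2 CPM, against 12.2 to 19.4 CPM elsewhere. Neutrophil markers also peaked in high-dose replicate 3: their 7 genes summed to 107 CPM, against 25.6 to 44.8 CPM in the other high-dose libraries, 13.9 to 42.0 CPM at the middle and 21.8 to 55.8 CPM at the low dose. Of these markers only MMP9 was at 0 in a library, middle-dose replicate 2. In high-dose replicate 3, S100A12, S100A9 and S100A8 held 31.5, 17.5 and 10.7 CPM of the 107 CPM. Whether this sum reflects neutrophils, and its part in the heat shock values, was not tested. Immediate early genes, which respond within minutes to many stimuli, ranked 5 of 12 in this library, at a summed 1130 CPM within a range of 629 to 2383 CPM.

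**Figure D3:**
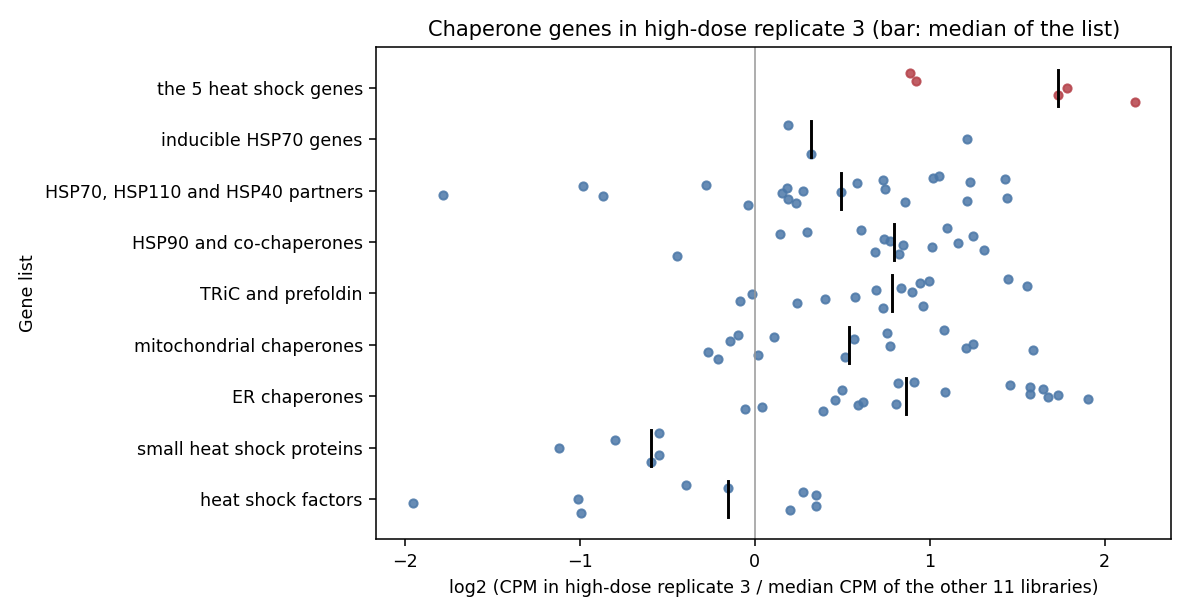
Each point is a gene, placed by the log2 ratio of its CPM in high-dose replicate 3 to its median over the other 11 libraries, by gene list; black bars are list medians and the line at 0 marks no difference. All 5 heat shock genes (red) lie right of 0, from 0.89 for DNAJB1 to 2.17 for HSPH1, while all 5 small heat shock proteins lie left of 0.

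The share of each gene among the reads of the 5 does not depend on how libraries are scaled. At the low dose HSP90AA1 gave 44.9 ± 2.62% (SD, n = 4) of these reads and HSPA8 38.1 ± 3.45%, and at the high dose HSPA8 gave 42.9 ± 4.79% and HSP90AA1 38.0 ± 7.19%. Reads were not corrected for transcript length, so the shares compare libraries and not the abundance of the genes. HSPA8 gave more reads than HSP90AA1 in high-dose replicates 2, 3 and 4 (43.3 against 33.9%, 48.7 against 30.5% and 42.4 against 40.9%). It also did so in middle-dose replicates 2 (41.2 against 39.0%) and 4 (39.2 against 38.9%) and in low-dose replicate 3 (43.1 against 42.9%), and in no other library. HSPH1 gave 3.41 ± 1.02, 4.43 ± 0.566 and 5.98 ± 2.08% for low, middle and high, with its highest share, 8.64%, in high-dose replicate 2 and not in replicate 3 (6.47%). HSPD1 gave 13.4 ± 0.977% at the middle dose, against 10.3 ± 1.78% at the low and 10.4 ± 2.08% at the high dose. DNAJB1 gave 3.28 ± 0.267%, 2.62 ± 0.509% and 2.82 ± 0.908% at the low, middle and high doses.

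These shares were compared with 15 exact permutation tests (two-sided), 5 genes by 3 comparisons, and 0 passed after Benjamini-Hochberg adjustment. The smallest p, 0.0286, is also the smallest that 70 arrangements of 4 against 4 allow, and it was reached for middle against low by HSPD1 (higher, exact adjusted p = 0.214) and DNAJB1 (lower, exact adjusted p = 0.214). For these 2 genes all 4 middle-dose shares lay on one side of all 4 low-dose shares. HSPD1 held 12 to 14.1% at the middle dose and 7.77 to 11.9% at the low dose. DNAJB1 held 1.88 to 3.04% and 3.07 to 3.68%. HSPH1 at the high against the low dose gave an exact p of 0.0571 (adjusted 0.214), and its high-dose replicate 1 (3.80%) lay within the low-dose range of 2.22 to 4.63%.

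**Figure D4:**
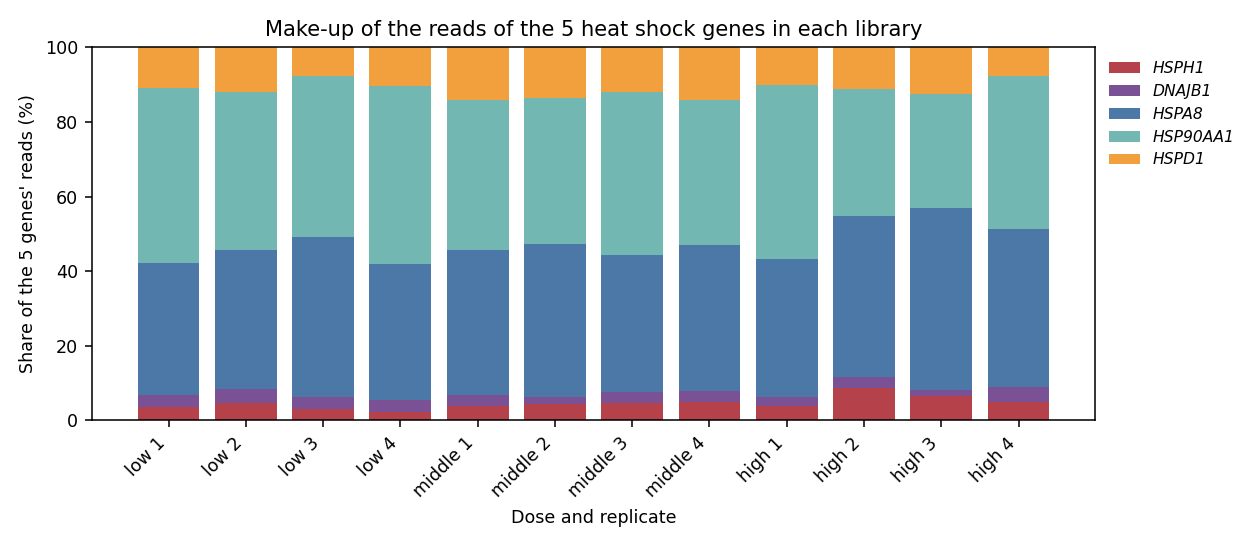
Make-up of the reads of the 5 heat shock genes in each library, as stacked percentages of their summed counts, ordered by dose and replicate. HSPD1 takes 12 to 14.1% in the middle-dose libraries, and HSPA8 exceeds HSP90AA1 most in high-dose replicate 3 (48.7 against 30.5%).

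The other genes of the chaperone network were read from 7 lists, and 0 of their genes passed an adjusted p of 0.05 in edgeR in any of the 3 comparisons. Their medians stand beside medians of all genes of -0.03 for high against low and for middle against low and 0.03 for high against middle. Their counts stand beside 47% of all genes with a higher estimate for high against low and 47.4% for middle against low. For high against low, 7.27% of all genes were higher at an unadjusted p under 0.05 in edgeR. For high against low, HSP90 and its co-chaperones had 13 of 14 estimates higher (median log2 0.40), 5 of them at an unadjusted p under 0.05. STIP1, which links HSP70 to HSP90, stood at 0.83 ± 0.28 SE, and PTGES3, the p23 co-chaperone, at 0.56 ± 0.21. AHSA2, an activator of the HSP90 ATPase, stood at 0.52 ± 0.20 and had 12.5 to 13.8 CPM in high-dose replicates 2, 3 and 4, above the 7.12 to 9.94 CPM of the low dose. The partners of HSP70 had 16 of 21 higher (median 0.21), 4 of them at p under 0.05, and HSPA4 was at 0.85 ± 0.29. STUB1, the ubiquitin ligase that tags clients of HSP70, had its largest estimate at the middle dose (0.46 ± 0.15 against low), and DNAJA4, a J-domain protein, its lowest (-0.71 ± 0.23).

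TRiC and prefoldin had 13 of 14 estimates higher at the high than at the low dose (median 0.42, 5 at an unadjusted p under 0.05), with the TRiC subunits CCT5 at 0.79 ± 0.32 and CCT2 at 0.67 ± 0.27 and the prefoldin subunit PFDN6 at 0.56 ± 0.23. Mitochondrial chaperones and proteases had 11 of 14 higher (median 0.32, 6 at p under 0.05). GRPEL1, which exchanges the nucleotide on mitochondrial HSP70, stood at 0.85 ± 0.27 and CLPB, a disaggregase, at 0.62 ± 0.23. HSPE1 stood at 0.81 ± 0.33, close to its partner HSPD1 (0.87 ± 0.37). In middle against low all 14 genes of this list had higher estimates (median 0.18). YME1L1, a protease of the inner membrane, stood at 0.53 ± 0.17 and HSPA9, the mitochondrial HSP70, at 0.54 ± 0.30, while HSPD1 was at 0.33.

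Endoplasmic reticulum chaperones, which fold secreted protein, had all 18 estimates higher at the high than at the low dose (median 0.61, 11 at an unadjusted p under 0.05). HSPA5 stood at 1.05 ± 0.31 and MANF, a secreted stress protein, at 1.03 ± 0.34. For high against middle, 15 of 18 had higher estimates, as had 52.8% of all genes. SEL1L, which serves the export of misfolded protein for breakdown, was instead highest at the middle dose (1.01 ± 0.24 against low). Small heat shock proteins, which hold unfolded protein without ATP, had 2 of 5 higher for high against low (median -0.11) and 1 of 5 for middle against low (median -0.54). CRYAB, alpha-B-crystallin, stood at 39.7 to 72.5 CPM in middle-dose replicates 1, 2 and 4 and at 79.7 to 207 CPM in the other 9 libraries. HSPB6 was at -0.95 ± 0.37 for middle against low, and the 85.0 CPM of HSPB8 in high-dose replicate 1 stood above 4.93 to 28.8 CPM elsewhere. Among heat shock factors and regulators 7 of 9 were higher for high against low (median 0.13, 0 at p under 0.05) and 9 of 9 for middle against low (median 0.30). UBB, a polyubiquitin gene, led the latter at 0.64 ± 0.18. SIRT1, a deacetylase that acts on HSF1, was at 0.22 ± 0.12 for high against low, and HSF2BP was at or below 1.67 CPM in all libraries.

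Without high-dose replicate 3 the median for high against low went from 0.40 to 0.25 for HSP90 and its co-chaperones, from 0.42 to 0.20 for TRiC and prefoldin, from 0.32 to 0.26 for the mitochondrial list and from 0.21 to 0.18 for the partners of HSP70. Genes with higher levels at an unadjusted p under 0.05 in edgeR fell from 7.27% to 3.66% of all genes. Such genes went from 6 to 1 in the mitochondrial list and from 5 to 1 in TRiC and prefoldin. They went from 5 to 0 for HSP90 and its co-chaperones and from 4 to 0 for the partners of HSP70. The endoplasmic reticulum list went from 0.61 to 0.54, and 10 of its 11 such genes kept that p. The small heat shock protein list turned from -0.11 to 0.05. By library size alone, where the median of all genes was -0.32, the median for high against low was -0.08 for the partners of HSP70, -0.01 for the mitochondrial list and -0.17 for heat shock factors and regulators, and it stayed above 0 for HSP90 and its co-chaperones (0.08), TRiC and prefoldin (0.09) and the endoplasmic reticulum list (0.29). For middle against low, with a median of all genes of -0.86, all 7 list medians were below 0 by that scaling, among them -0.65 for the mitochondrial list and -0.59 for heat shock factors and regulators. Leaving out middle-dose replicate 3, edgeR called 0 to 3 genes per list for middle against low, where 17.3% of all genes were called, and 0 to 2 for high against middle, where 3.66% were. The 3 were endoplasmic reticulum chaperones, out of 18.

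**Figure D5:**
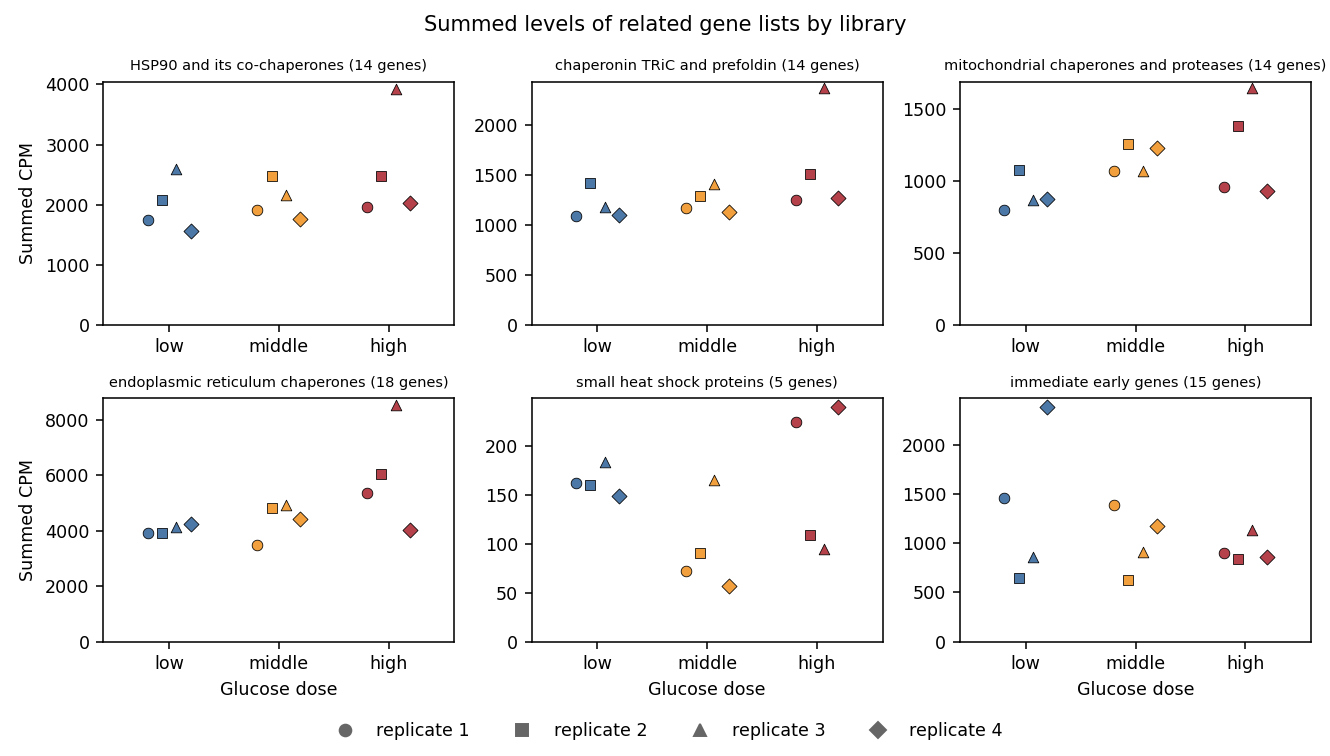
Summed CPM of 6 related gene lists in each library, on linear axes from 0, by glucose dose; point shapes give the replicate number. High-dose replicate 3 (triangle) is highest for the lists of HSP90, TRiC, mitochondrial and endoplasmic reticulum chaperones, at 3929, 2367, 1646 and 8521 CPM, but ranks 9 of 12 for the small heat shock proteins (94.6 CPM).

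The heat shock genes varied together to differing degrees over the 12 libraries. On log2 CPM, Pearson's r between pairs was highest for HSPA8 with HSP90AA1 (0.909) and HSPA8 with HSPH1 (0.899), and lowest for DNAJB1 with HSPD1 (0.449). These pairs share libraries, their depth and their scaling, and the values are given as a description. Leaving out high-dose replicate 3 changed r to 0.761, 0.826 and 0.033 in that order, and HSP90AA1 with HSPD1 went from 0.724 to 0.216. DNAJB1 and HSPD1 thus had an r near 0 over the other 11 libraries. The 3 genes most like each heat shock gene were taken among 11692 named genes with a mean log2 CPM of at least 1. Of these, STIP1 and AHSA1 are on the list of HSP90 and its co-chaperones, and the others are on none of the chaperone lists. How often chaperones would be picked for other genes was not tested. HSPH1 was closest to PINX1 and STIP1 (both 0.962) and FTSJ3 (0.958), and HSPD1 to AHSA1 (0.972), an activator of HSP90, then SMN1 (0.969) and AIMP2 (0.957). HSPA8 was closest to EMG1 (0.971), PDCD10 (0.968) and ELAVL1 (0.967). For HSP90AA1 they were SNRNP40 (0.960), NCBP1 (0.958) and HNRNPM (0.953). DNAJB1 was closest to the kinase gene SIK2 (0.933), the tubulin gene TUBA4A (0.931) and STYX (0.919). Without high-dose replicate 3 these 15 values lay between 0.874 and 0.932. By r over all 12 libraries, HSP90AA1 ranked 74 for HSPA8 among these named genes, and HSPA8 ranked 33 for HSP90AA1. HSPA8 ranked 57 for HSPH1, and HSPH1 ranked 90 for HSPA8. HSPD1 ranked 2026 for DNAJB1, and DNAJB1 ranked 2438 for HSPD1. Many other genes were thus closer to each of them.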

How the data were processed

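Per the labels' protocols, Trizol was used to extract RNA and a TruSeq kit to build the libraries. For each library the authors deposited a table of genes with whole-number read counts, not normalized. Bowtie 0.12.2 and the mouse build mm8 are named in the submitters' processing notes, whereas the tables list goat genes. How reads were assigned to genes, with or without strand, and the goat build are not given. If strand was not used, reads of antisense genes cannot be told apart. Doses were read from the treatment labels. The 15810 genes in all tables were used (at most 0.00231% of a library was left out), and 97.3% of gene IDs matched ARS1.2, used for names and chromosome numbers only; sequences were not used here.

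After filterByExpr (minimum count 10, minimum total 15) 13624 genes were scaled by TMM (factors 0.514 to 1.50) and tested in edgeR 4.0.16 (quasi-likelihood F test), dose as the only factor over 12 libraries, with Benjamini-Hochberg adjustment over all genes to 0.05. The biological coefficient of variation was 0.363. SE is the log2 difference divided by the square root of F. The prior count for log2 CPM was 2. "Called" means past the adjusted threshold, and libraries "do not overlap" where all 4 of a dose lie above all 4 of another. Alternatives were DESeq2 1.42.0, limma 3.58.1 (voom with quality weights), other scalings, no filter, only the groups compared, table layout as a term or 1 layout alone, leaving out each library, and a replicate block. On simulated counts the edgeR script was tested first. Exact permutation tests served for shares. The software was R 4.3.3, Python 3.11.15, pandas 2.3.3, numpy 2.4.6 and matplotlib 3.10.9.

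Genes named were the heat shock genes of the rule, in each chaperone list the 3 with the smallest p for any difference, and for each heat shock gene the 3 most similar genes by Pearson's r. HSPE1, HSP90AB1, HSF1, the inducible HSP70 genes and single peaks were named after their values had been seen. The heat shock genes and all lists were chosen with earlier results of these data known.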

Additional observations from a re-analysis of the deposited data

Results flagged for a closer look

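The level of HSP90AA1 in high-dose replicate 3, 1637.2 CPM, lay far from the other libraries of its dose: its gap to the nearest (944 CPM) was 0.924 of the range of the 4 libraries, above Dixon's 95% critical value. It was the only one among 15 groups of 4 (5 genes by 3 doses), and chance flags about 1 in 20 such groups.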

How the results depend on the processing

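For high against low and middle against low, 0 of the 5 genes were called with all 12 libraries in edgeR and under each of 22 alternatives. Over all genes these alternatives called 0 to 55 for high against low (55 by DESeq2) and 0 to 4557 for middle against low (1420 by DESeq2, 4557 by limma voom, 2390 by edgeR without middle-dose replicate 3). For high against middle the count was 1 with DESeq2, 1 with limma voom and 0 to 1 over the libraries left out in turn, and DNAJB1 was the gene in each case. For any difference it was 1 with DESeq2, 4 with limma voom and 0 to 1 over the libraries left out. Between the middle and low doses HSPH1 went to -0.465 and HSPD1 to -0.499 with library size alone, where the median of all genes was -0.86, and HSPA8 went to 0.234 in the 8 libraries of the frequent layout and ranged from -0.142 to 0.113 over the libraries left out. HSPD1 for high against middle ranged from -0.043 (without high-dose replicate 3) to 0.766 over the libraries left out, against 0.55 with all 12. The cause was not tested. With a replicate block 0 of the 5 were called in each comparison, and HSPH1 stood at 1.46 for high against low. Same-numbered libraries had correlations of deviations from -0.535 to 0.379 over 12 pairs, and 1 of 12 libraries correlated best with its own number. These values cannot decide whether equal numbers mark a shared goat or batch, since milk protein reads also differed widely within a dose. Medians of the lists moved in 37 of 111 recomputations, all of them by library size alone. Leaving out the milk protein genes moved none.

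Depth was not the limit for these 5 genes (at least 194 reads). With 4 libraries a dose, an adjusted p above 0.05 does not show that levels were alike.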
